A study of Mus musculus with 15 samples.

Results

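The thioredoxin, peroxiredoxin and glutathione enzymes were followed in a mouse line labelled lymphoid ES (embryonic stem), treated or left untreated. Members were chosen by symbol. They are the genes whose symbol begins with Gst, Gpx, Prdx, Txn or Glrx, or with Sod and a digit, together with Gclc, Gclm and Cat; Txnip was left out. These were 51 of the 9834 named genes on the array, measured by 69 probes, 37 of them by 1 probe and 14 by several. Gsr (glutathione reductase) and Nqo1 (a quinone reductase) belong to the same definition and were not analysed here.

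Total RNA was measured on 15 two-colour arrays with 20205 probes, and every array held treated and untreated RNA. The treated RNA carried Cy5 on 8 arrays (numbers 1 to 8) and Cy3 on 7 dye swaps (numbers 9 to 15). The labels give no agent, dose, duration, genotype or strain, and do not say what makes the line lymphoid, the number of cultures, or whether an RNA was used on several arrays. The protocol fields mention organs and a pool from control animals, wording at odds with a line of cells; the name of each channel was taken instead. The spread behind each p-value is thus that between arrays, which may be technical.

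Each value is a log2 ratio as deposited. A value above 0 is read here as more RNA in the treated cells, because the values that stand in for an empty channel are positive on arrays 1 to 8 and negative on the dye swaps, as a ratio already turned for the dye would give. Other values run the opposite way, as unturned ratios would: the median Pearson correlation over probes was -0.058 between opposite orientations and 0.083 within one, and turning the sign of the dye swaps gave 254 genes past the test in place of 4. The direction is therefore not settled, and the values are also given by dye orientation and with the dye swaps turned. A ratio carries no level, so neither the abundance of a member nor the labelled cell type could be checked against marker genes.

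Arrays held between 19213 and 19973 measured values, and between 66 and 69 of the 69 member probes. Correlations between arrays were low: the highest Pearson correlation of an array with any other was 0.083 at most for arrays 7, 8 and 15 and between 0.126 and 0.318 for the remaining 12, over all probes. Between 3.61 and 16.1% of the values per array came from spots so weak that the ratio is one of small whole numbers (dim spots), and 27 of the 68 fitted member probes were never dim.

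These enzymes keep the cell's thiols reduced and remove peroxides. Superoxide dismutases turn superoxide into hydrogen peroxide, which catalase, peroxiredoxins and glutathione peroxidases then break down. Thioredoxin, kept reduced by thioredoxin reductase with electrons from NADPH, regenerates the peroxiredoxins, while glutathione, made by glutamate-cysteine ligase, serves the peroxidases, the glutaredoxins and the transferases that conjugate electrophiles. The transcription factor NRF2 induces many of these genes through the antioxidant response element.

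The core of that element, TGACNNNGC on either strand, was searched from 250 bases before to 50 bases after annotated gene starts (RefSeq, GRCm38.p6). Of the 51 members, 45 had such a sequence, in 63 promoters. The core was in 9 of the 63 (14.3%) and in 12.4% of all 32851 promoters. The sites of Gclm, Prdx1 and Txnrd1, textbook NRF2 targets, and those of Txndc11 and Txndc2, whose values are described below, are shown 5′ to 3′ on the strand of the gene, with the core or its reverse complement in capitals.
Gclm, chr3:122245413-122245441 (+): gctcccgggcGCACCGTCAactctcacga
Prdx1, chr4:116685456-116685484 (+): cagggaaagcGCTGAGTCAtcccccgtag
Txnrd1, chr10:82859104-82859132 (+): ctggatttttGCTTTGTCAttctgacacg
Txndc11, chr16:11134755-11134782 (-): gtggaaggcTGACGCGGCcgcgagtgct
Txndc2, chr17:65639941-65639969 (-): ctttgaacctTGACCTAGCctagctgtgt
A match describes the letters and is not evidence of binding.

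No thioredoxin, peroxiredoxin or glutathione gene passed the test for treatment. The test was limma's moderated test on all genes measured on 4 or more arrays per orientation, and a gene passed at a Benjamini-Hochberg adjusted p under 0.05. It covered 50 of the 51 members. Of 9720 genes tested, 4 passed (0.0412%), and the smallest adjusted p of a member was 0.613. At an unadjusted p under 0.05, 3 of the 50 members passed in limma, against 7.02% of all genes, so the members' share was near the background. Of these 3, 1 was below 0 (3.08% of all genes) and 2 were above (3.94%). Without arrays 7, 8 and 15 the number was 4 (7.9% of all genes).

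The estimates were small and lay on both sides of 0. The treatment estimate is the mean of both orientations in log2 units. It was below 0 for 28 members and above 0 for 22, and 48% of all genes were below 0. The median was -0.008 over members and 0.005 over all genes, and the median size without sign was 0.076 and 0.075. For 45 of the 50 members the 95% interval of limma's estimate stayed inside a 1.5-fold change in either direction, and for 49 inside a 2-fold change. The intervals of Txndc2, Txnl4a, Prdx4, Gpx2 and Gstk1 reached past 1.5-fold, and that of Txndc2 past 2-fold. These counts hold for the ratios as deposited. With the dye swaps turned, the intervals of Gpx2, Gstk1, Gstt3 and Txndc2 reached past 1.5-fold and none past 2-fold. That of Txndc2 then ran from -0.167 to 0.892 and that of Gstt3 from -0.648 to 0.181. A missed threshold does not show that a gene was unchanged; the intervals give the sizes that these arrays leave room for.

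**Figure D1:**
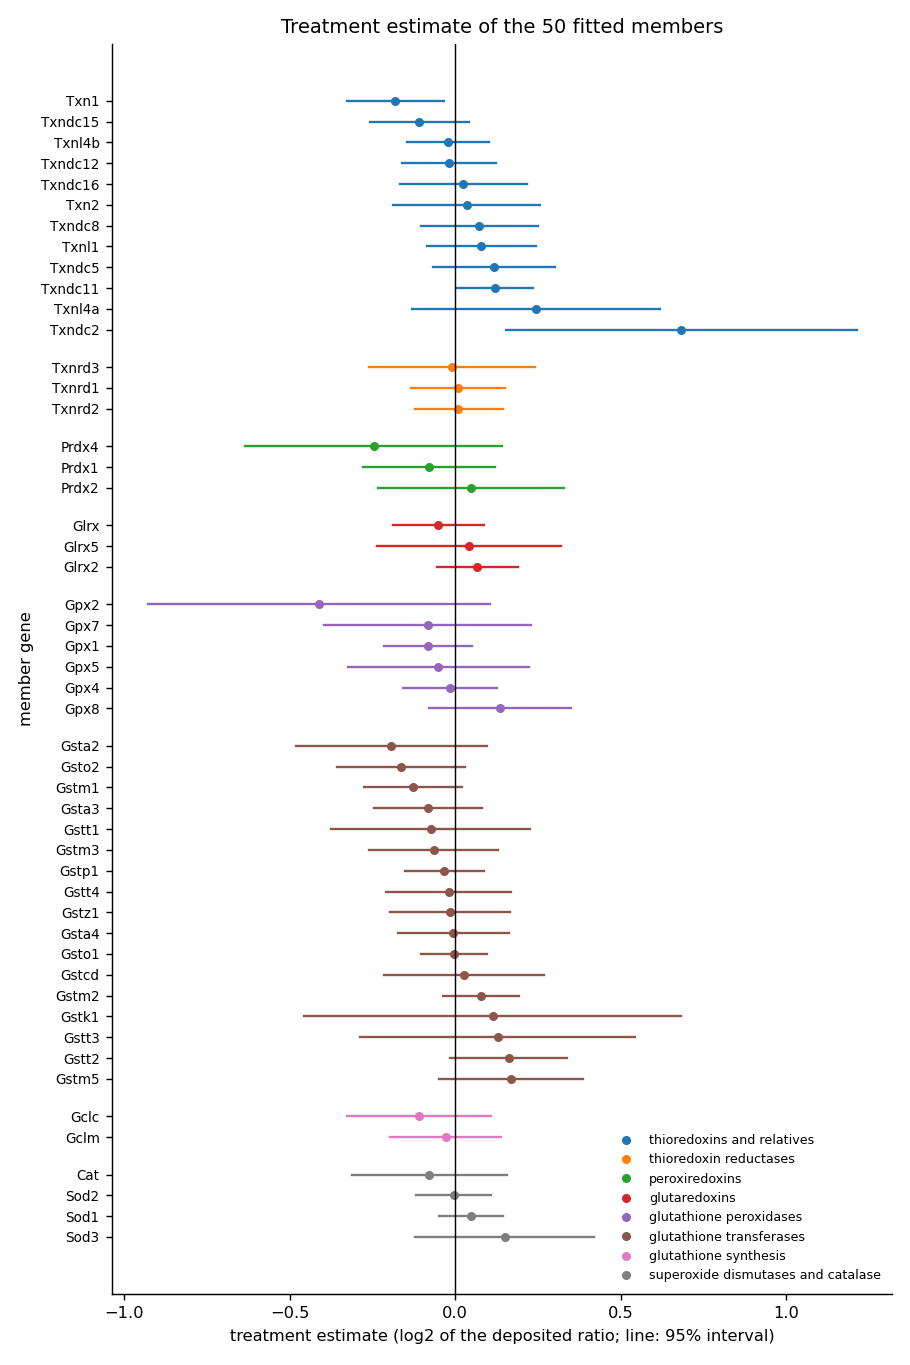
Treatment estimate (log2 of the deposited ratio, x axis) of each of the 50 fitted members (y axis, grouped by role); points are estimates and lines their 95% intervals from limma. The points run from -0.41 for Gpx2 to 0.68 for Txndc2, and the intervals of Txn1, Txndc11 and Txndc2 leave out 0 before adjustment.

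The members with an unadjusted p under 0.05 were thioredoxins or relatives, Txn1, Txndc2 and Txndc11. With the dye swaps turned, there were 6 such members (19.5% of all genes), Gpx1, Gsta3, Gstm1, Gstt2, Prdx1 and Txnl4b. Of 12 thioredoxins and relatives, 8 were above 0; the group's median was 0.054. Txn1, the cytosolic thioredoxin, lay between -0.68 and 0.22 on arrays 1 to 8 (median -0.05) and between -0.58 and -0.01 on the dye swaps (median -0.18). It was below 0 on all 7 dye swaps and on 5 of the 8 other arrays, and both orientations overlapped. Its treatment estimate was -0.18 ± 0.07 (SE, n = 15 arrays; unadjusted p = 0.0183, adjusted p = 0.633 in limma), about 1.13-fold. Leaving out 1 array at a time, the estimate lay between -0.20 and -0.14.

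Txndc2, a thioredoxin known from the sperm tail, had the largest estimate and the fewest values. Its probe gave 10 measured values. With the treated RNA in Cy5 these were 0.88, 1.31, 1.33, 1.18 and 0.53 on arrays 1, 2, 3, 4 and 7, and on the dye swaps 1.77, -0.27, 1.40, -0.79 and -0.51 on arrays 9, 10, 11, 14 and 15. All 5 values of the first orientation were above 0, and those of the dye swaps fell on both sides. Of the 5 missing values, 4 were stand-ins for an empty channel, and 2 of the 10 measured values were dim. The estimate was 0.68 ± 0.24 (SE, n = 10; unadjusted p = 0.0162, adjusted p = 0.613 in limma), or 1.61-fold.

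Txndc11, a thioredoxin-domain protein of the endoplasmic reticulum, ranged from -0.14 to 0.18 with the treated RNA in Cy5 (median 0.05) and from -0.13 to 0.46 on the dye swaps (median 0.32). It was above 0 on 5 of 8 and on 5 of 7 arrays. The estimate was 0.12 ± 0.06 (SE, n = 15; unadjusted p = 0.0451, adjusted p = 0.704 in limma). Txn1, Txndc2 and Txndc11 thus did not differ from 0 by more than the spread between arrays once adjusted over all genes.

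Among the other relatives, Txndc5, a protein disulfide isomerase of the endoplasmic reticulum, was at 0.12 ± 0.09 (SE) and Txnl1, which associates with the proteasome, at 0.08 ± 0.08. Txn2, the mitochondrial thioredoxin, was at 0.03 ± 0.10, but its probes were at -0.14 ± 0.07 and 0.21 ± 0.19, on opposite sides of 0. Txnl4a, a small protein of the spliceosome in spite of its thioredoxin fold, was at 0.24 ± 0.18 with probes at 0.04, 0.47 and 0.24; the probe at 0.47 was dim on 5 of 13 arrays, and array 12 gave a gene value of 2.35. Txndc8 (0.07), Txndc16 (0.02), Txndc12 (-0.02), Txnl4b (-0.02) and Txndc15 (-0.11) completed the group. None of these passed limma's test.

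The thioredoxin reductases, selenoenzymes that pass electrons from NADPH to thioredoxin, were the role group closest to 0. Their median size without sign was 0.01, though single members of other groups were closer, such as Gsto1 at -0.004. The estimate was 0.01 ± 0.07 (SE, n = 15) for the cytosolic Txnrd1, 0.01 ± 0.06 for the mitochondrial Txnrd2 and -0.01 ± 0.12 for Txnrd3, which also carries a glutaredoxin domain. For Txnrd1 the 95% interval ran from -0.13 to 0.15. The values of Txnrd1 and Txnrd2 are averages of probes on both sides of 0. Those of Txnrd1 were at -0.071 ± 0.071 and 0.091 ± 0.102. Those of Txnrd2 were at 0.077 ± 0.087, -0.092 ± 0.111 and 0.025 ± 0.113. Txnrd2 lay between -0.15 and 0.34 with the treated RNA in Cy5 (median 0.03) and between -0.46 and 0.33 on the dye swaps (median -0.01). It was above 0 on 5 of 8 and 3 of 7 arrays, so both orientations straddled 0.

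Peroxiredoxins reduce peroxides with electrons from thioredoxin. Prdx4, the peroxiredoxin of the endoplasmic reticulum, ranged from -0.40 to 0.24 with the treated RNA in Cy5 (median -0.04) and from -2.81 to 0.54 on the dye swaps (median -0.18). The value of -2.81 came from array 15, and the next lowest array was at -0.41. The estimate was -0.25 ± 0.18 (SE, n = 15; adjusted p = 0.791 in limma) and -0.05 without array 15. Prdx2, which is abundant in red cells, was at 0.05 ± 0.13, with 1.64 on array 1.

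Prdx1, the main cytosolic peroxiredoxin, was split by dye. Prdx1 and Gpx1 had the smallest p for the difference between orientations, and Gpx5 passed for it once array 7 was left out; all 3 were chosen for description after these values were seen. With the treated RNA in Cy5 Prdx1 lay between -0.37 and 0.69 (median 0.21), above 0 on 6 of 8 arrays. On the dye swaps it lay between -0.80 and 0.22 (median -0.43), below 0 on 5 of 7. The treatment estimate was -0.08 ± 0.09 (SE, n = 15; adjusted p = 0.861 in limma), or -0.04 without array 7 and -0.13 without array 13. The dye effect, 0.5 times the difference between orientations, was 0.29 ± 0.09 (adjusted p = 0.0974).

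The glutaredoxins, which reduce disulfides with glutathione, were within 0.07 of 0. Glrx2, a nuclear and mitochondrial glutaredoxin, lay between -0.12 and 0.48 with the treated RNA in Cy5 (median -0.06) and between -0.27 and 0.26 on the dye swaps (median 0.13). It was above 0 on 3 of 8 and on 6 of 7 arrays, and its estimate was 0.07 ± 0.06 (SE, n = 15; adjusted p = 0.820 in limma), or 0.03 without array 7. Its probes, at 0.04 and 0.09, were on one side. The cytosolic Glrx was at -0.05 ± 0.07 and Glrx5, which serves iron-sulfur cluster assembly, at 0.04 ± 0.13.

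Of 6 fitted glutathione peroxidases, 5 were below 0 (48% of all genes were), with a median of -0.067. With the dye swaps turned, 2 were below 0 and 4 above, with a median of 0.143. Gpx2, the gastrointestinal form, lay between -1.02 and 0.28 with the treated RNA in Cy5 (median -0.03) and between -3.95 and 0.15 on the dye swaps (median -0.09). The value of -3.95, on array 15, was the largest of any member on any array, and it set the size of the estimate: -0.41 ± 0.24 (SE, n = 15; adjusted p = 0.764 in limma), and -0.14 without array 15. Gpx4, which protects membrane lipids from peroxidation, was at -0.02 ± 0.07 with a 95% interval from -0.16 to 0.13. Gpx7 was at -0.08 ± 0.15 and Gpx8 at 0.13 ± 0.10; both act in the endoplasmic reticulum.

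Gpx1, the abundant cytosolic selenoenzyme, was also split by dye. It lay between -0.04 and 0.38 with the treated RNA in Cy5 (median 0.07) and between -0.77 and 0.04 on the dye swaps (median -0.23). It was above 0 on 5 of 8 arrays and below 0 on 6 of 7 swaps. The treatment estimate was -0.08 ± 0.06 (SE, n = 15; adjusted p = 0.797 in limma), or -0.04 without array 14, and the dye effect was 0.20 ± 0.06 (adjusted p = 0.0914).

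Gpx5, the epididymal form, was above 0 on 7 of arrays 1 to 8 (from -1.21 to 0.68, median 0.39) and below 0 on 4 of 7 dye swaps (from -0.73 to 0.28, median -0.59). The exception in the first orientation was array 7, at -1.21. The treatment estimate was -0.05 ± 0.13 (SE, n = 15), and 0.05 without array 7. Gpx6 was not fitted. It had 7 measured values, from -2.09 to 1.88, and 3 of its 8 missing values were stand-ins for an empty channel.

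**Figure D2:**
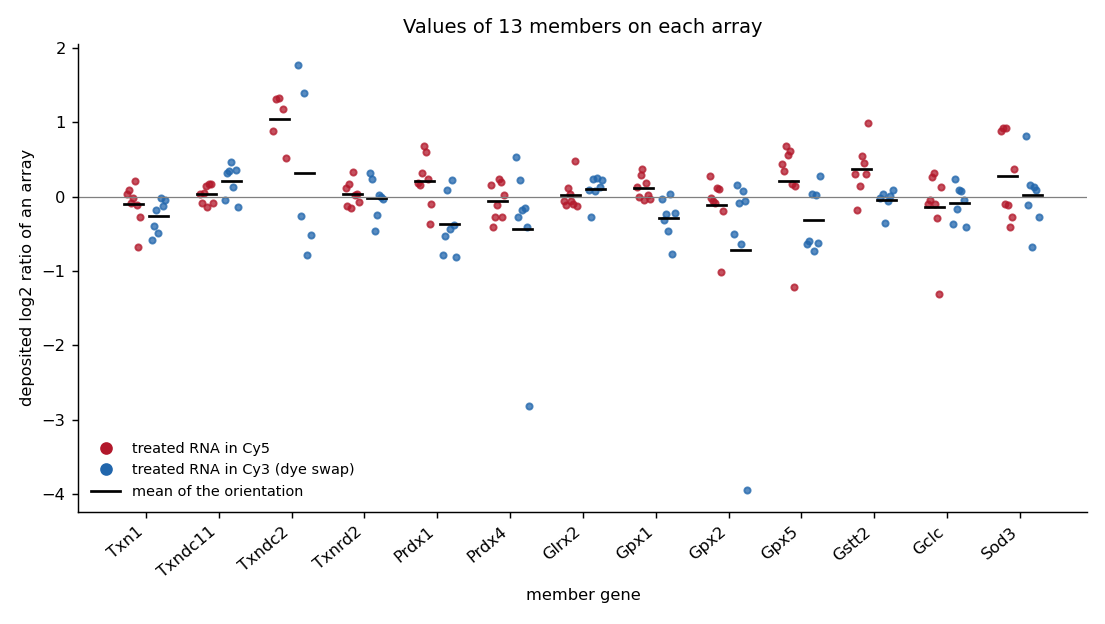
Deposited log2 ratio (y axis) of 13 members (x axis) on single arrays; red points have the treated RNA in Cy5, blue points in Cy3, and black bars are the mean of an orientation. Prdx1, Gpx1 and Gpx5 lie mostly above 0 in red and below 0 in blue, and the lowest points, of Gpx2 and Prdx4, come from array 15.

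No member passed for the dye effect in limma either, where 254 of 9720 genes did (2.61%), and 6 of the 50 members had an unadjusted p under 0.05 (19.5% of all genes). Without array 7, Gpx5 (dye effect 0.37 ± 0.09, SE, n = 14 arrays; adjusted p = 0.0302) and Prdx1 (0.34 ± 0.09; adjusted p = 0.0465) passed in limma, as did 4.46% of all genes. Without arrays 7, 8 and 15 the same pair passed, at 0.44 ± 0.08 (adjusted p = 0.0141) and 0.33 ± 0.09 (adjusted p = 0.0467) in limma, as did 5.98% of all genes. If the dye swaps were to be turned, these values would be the treatment estimates, and the treated RNA would then be the higher one for Prdx1, Gpx1 and Gpx5. The deposited values cannot tell the dye from the treatment without knowing the direction of the ratio.

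Single probes gave 1 call among 68 fitted member probes. A probe of Txnl4a had a dye effect of 0.30 ± 0.07 (SE, n = 15 arrays; adjusted p = 0.0274 in limma over 19863 probes, of which 2.74% passed) and a treatment estimate of 0.04 ± 0.07. The remaining Txnl4a probes had dye effects of -0.05 and -0.23, so the probes of this gene disagreed. For treatment, no member probe passed (0.0503% of all probes did); the smallest unadjusted p, 0.0166, was that of Txndc2.

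**Figure D3:**
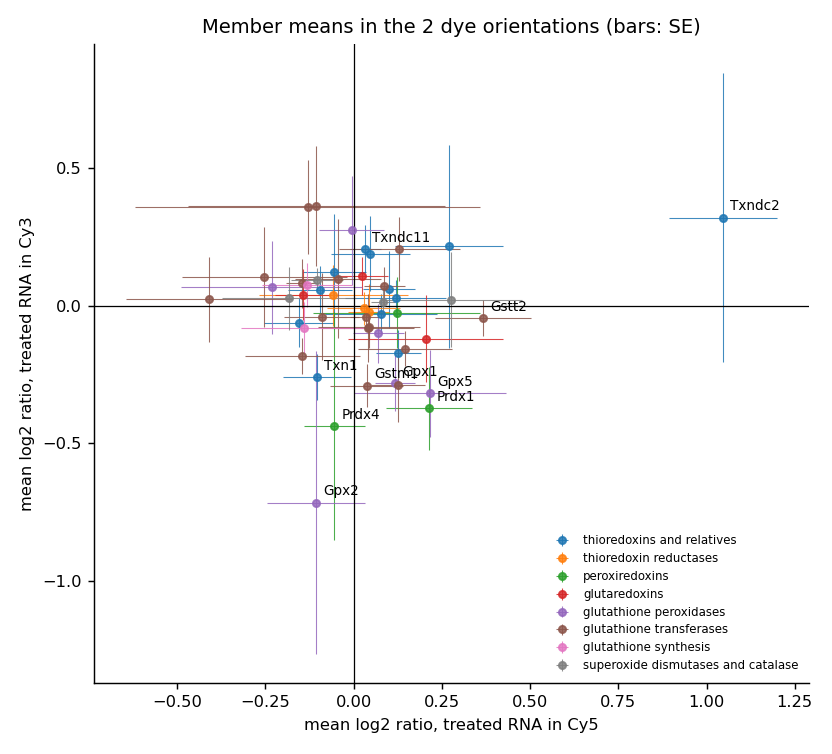
Mean log2 ratio of each of the 50 fitted members with the treated RNA in Cy5 (x axis) and in Cy3 (y axis); bars are standard errors over the arrays of an orientation, and colours mark the role. Members above or below 0 in both orientations (11 and 7) lie in the upper right and lower left, and Prdx1, Gpx1 and Gpx5 lie in the lower right.

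By orientation, 11 members were above 0 in both and 7 below 0 in both, or 22% and 14% of the members. Of all genes, 21.5% and 18.2% were. Those below 0 in both were Txn1, Txndc15, Prdx4, Gpx2, Gstm3, Gsto2 and Gclc. In limma fits of 1 orientation, 0 members passed in either, as did 0 of all genes. At an unadjusted p under 0.05, 2 of 51 members passed with the treated RNA in Cy5 (13% of all genes), Gstt2 and Txndc2, both above 0. On the dye swaps 4 of 50 did (14.5% of all genes), Txn1, Prdx1, Gpx1 and Gstm1, all below 0.

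The glutathione transferases, the largest group, conjugate glutathione to electrophiles. Of 17, 11 were below 0 and 6 above, with a median of -0.016; with the dye swaps turned, 8 were below 0 and 9 above. Gstt2, of the theta class, lay between -0.18 and 0.99 with the treated RNA in Cy5 (7 measured arrays, median 0.31) and between -0.35 and 0.10 on the dye swaps (6 arrays, median 0.00). It was above 0 on 6 of 7 and on 3 of 6 arrays. The estimate was 0.16 ± 0.08 (SE, n = 13; unadjusted p = 0.0700, adjusted p = 0.733 in limma).

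Among the mu class, Gstm5 was at 0.17 ± 0.10 (SE), Gstm2 at 0.08 ± 0.05, Gstm3 at -0.06 ± 0.09 and Gstm1 at -0.13 ± 0.07. Among the alpha class, Gsta2 was at -0.19 ± 0.14, Gsta3 at -0.08 ± 0.08 and Gsta4, which clears the lipid aldehyde 4-hydroxynonenal, at -0.01 ± 0.08. The average of Gsta4 joined probes at 0.15 ± 0.12 and -0.16 ± 0.07. Transferases of one class are similar in sequence, and probes of cDNA clones can bind more than 1 of them, which was not tested.

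Gstp1, the pi class enzyme found in most proliferating cells, was at -0.03 ± 0.06 (SE) with a 95% interval from -0.15 to 0.09. The omega class enzymes, which are close to glutaredoxins in activity, were at -0.004 ± 0.047 for Gsto1 and -0.17 ± 0.09 for Gsto2. The further theta class genes were at -0.07 ± 0.14 for Gstt1, 0.13 ± 0.19 for Gstt3 and -0.02 ± 0.09 for Gstt4. Gstz1, which acts in tyrosine breakdown, was at -0.02 ± 0.08, the mitochondrial and peroxisomal Gstk1 at 0.11 ± 0.27 and Gstcd at 0.03 ± 0.11. The estimate of Gstk1 averaged values as far apart as -1.84 on array 1 and 2.86 on array 4.

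Glutathione synthesis starts with glutamate-cysteine ligase. Gclc, its catalytic subunit, lay between -1.31 and 0.31 with the treated RNA in Cy5 (median -0.06) and between -0.41 and 0.24 on the dye swaps (median -0.05). It was below 0 on 5 of 8 and 4 of 7 arrays. The estimate was -0.11 ± 0.10 (SE, n = 15; adjusted p = 0.832 in limma), and -0.03 without array 7, which held the lowest value. Gclm, the modifier subunit and an established NRF2 target, was at -0.03 ± 0.08 with a 95% interval from -0.20 to 0.14.

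The superoxide dismutases held the member with the lowest spread between arrays, as an average of 2 probes. Sod1, the cytosolic copper-zinc enzyme, was at 0.05 ± 0.05 (SE, n = 15), with a 95% interval from -0.05 to 0.14. Its standard deviation within orientations was 0.12, lower than in all but 0.5% of the genes tested. The probes were at -0.019 and 0.115, on opposite sides of 0, and on array 4 at -0.244 and 0.608. Averaging probes can lower the spread, and 37 of the 51 members had 1 probe. Sod2, the mitochondrial manganese enzyme, was at -0.005 ± 0.053 with an interval from -0.12 to 0.11. Sod3, the extracellular form, lay between -0.41 and 0.93 with the treated RNA in Cy5 (median 0.14) and between -0.67 and 0.82 on the dye swaps (median 0.09). It was above 0 on 4 arrays of each orientation, and its estimate was 0.15 ± 0.13 (adjusted p = 0.820 in limma), or 0.08 without array 9. Cat, catalase, was at -0.08 ± 0.11, with -1.36 on array 7.

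Members differed widely in their spread between arrays. The standard deviation within orientations had a median of 0.34 over members and 0.35 over all genes. It ran from 0.12 for Sod1 and 0.13 for Gsto1, averages of 2 and 3 probes, to 1.03 for Gpx2 and 1.09 for Gstk1, each with 1 probe. Of the 14 members with several probes, 5 had all probes on one side of 0 and 9 did not, and the highest and lowest probe of a gene differed by a median of 0.15.

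**Figure D4:**
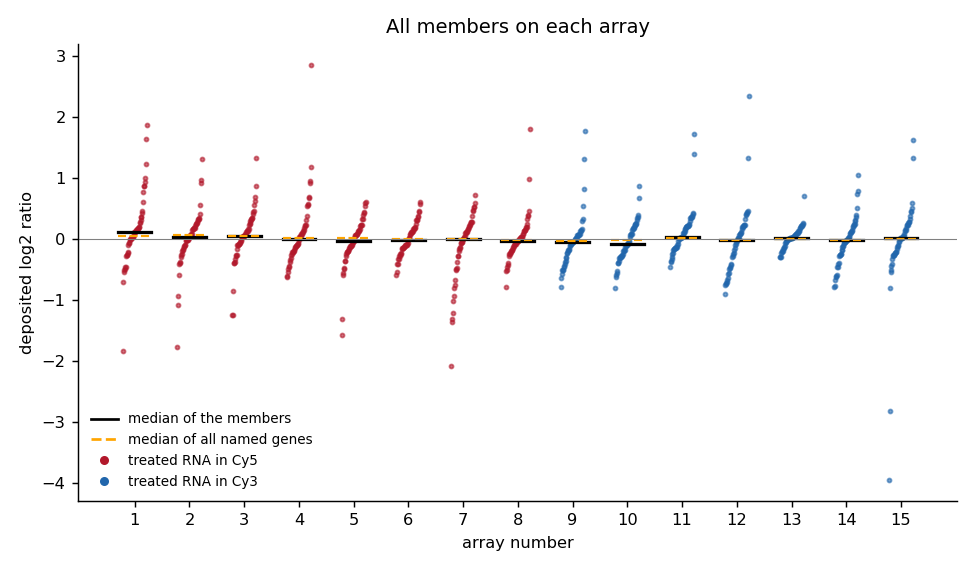
Deposited log2 ratio (y axis) of all measured members on each of the 15 arrays (x axis), sorted within an array; black lines are the median of the members and dashed orange lines that of all named genes. The member medians lie between -0.08 and 0.12, and the farthest points, at -3.95 and 2.86, are on arrays 15 and 4.

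The member median was between -0.08 (array 10) and 0.12 (array 1) over the arrays, and it differed from the median of all genes on the same array by 0.07 at most. On array 13 it was 0.02 with a standard deviation over members of 0.18, and on array 15 it was also 0.02 with a standard deviation of 0.80. The arrays thus differed in spread more than in the members' middle value.

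The 9 members with the NRF2 core in a promoter had a median treatment estimate of 0.048, with 3 below 0, and that of the 35 fitted members with a promoter sequence but no core was -0.019, with 23 below 0. Of the 5 whose sites are shown above, Prdx1, Gclm and Txnrd1 were at -0.08, -0.03 and 0.01, and Txndc11 and Txndc2 at 0.12 and 0.68. With the dye swaps turned, Prdx1, Gclm and Txnrd1 were at 0.29, -0.10 and 0.02, and Txndc11 and Txndc2 at -0.09 and 0.36. The remaining members with the core, Gsta3, Gstm5, Sod1 and Txndc5, were then at 0.21, -0.04, 0.03 and -0.07. The median over all fitted members was then 0.02. The difference between members with and without the core thus holds for the ratios as deposited. It is a description and was not tested.

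Around these enzymes, the suppliers and partners of the pathway did not pass limma's test for treatment either. In the counts that follow, 48% of all genes were below 0 and 7.02% had an unadjusted p under 0.05. Of 7 NRF2 pathway regulators, 6 were below 0 (median -0.11); Keap1, which marks NRF2 for degradation, was at -0.19 ± 0.15 (SE) and Nfe2l2, which encodes NRF2, at 0.06 ± 0.23. Of 11 genes of glutathione supply, turnover and export, 10 were below 0 (median -0.12), among them Gss, glutathione synthetase, at -0.15 ± 0.08, and 1 had an unadjusted p under 0.05, Chac2, which degrades glutathione, at -0.11 ± 0.05 (adjusted p = 0.704). Of 8 NADPH suppliers, 4 were below 0 (median -0.017), and 1 had an unadjusted p under 0.05, Tkt. Transketolase, which it encodes, was at -0.19 ± 0.07 (adjusted p = 0.561).

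Of 15 thiol and peroxide partners, 7 were below 0 (median 0.004) and 4 had an unadjusted p under 0.05 (7.02% of all genes). Sesn1, a stress-induced sestrin, was at 0.55 ± 0.11 (SE; adjusted p = 0.128 in limma), Txnip, the inhibitor of thioredoxin, at -0.31 ± 0.07 (adjusted p = 0.244), Ero1b, an oxidase of the endoplasmic reticulum, at 0.29 ± 0.11 (adjusted p = 0.598), and Ccs, the copper chaperone of Sod1, at -0.17 ± 0.08 (adjusted p = 0.710). Srxn1, which repairs overoxidized peroxiredoxins, was at 0.01 ± 0.06. In the ratios as deposited, Txnip was below 0 on 14 of 15 arrays and its binding partner Txn1 on 12. Their estimates were on opposite sides of 0 with the dye swaps turned, at -0.04 for Txnip and 0.08 for Txn1. With the dye swaps turned, 8 of the 15 partners were below 0 and 1 had an unadjusted p under 0.05 (19.5% of all genes).

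Of 9 other NRF2 targets, 6 were below 0 (median -0.092). At an unadjusted p under 0.05 these were the ferritin light chain Ftl1 at -0.24 ± 0.07 (SE; adjusted p = 0.392 in limma), Hmox1, haem oxygenase, at -0.44 ± 0.15 (adjusted p = 0.542) and the ferritin heavy chain Fth1 at -0.11 ± 0.05 (adjusted p = 0.704), while Ephx1, an epoxide hydrolase, was at 0.41 ± 0.15 on 10 arrays (adjusted p = 0.633). Of 3 microsomal glutathione transferases and relatives, 2 were below 0 before rounding (median 0). Of 6 oxidant producers 4 were (median -0.019), and none of either list had an unadjusted p under 0.05 for treatment. With the dye swaps turned, the number below 0 was 4 of 7 for the NRF2 pathway regulators, 8 of 11 for glutathione supply, 4 of 8 for NADPH supply, 3 of 9 for the other NRF2 targets, 1 of 3 for the microsomal enzymes and 3 of 6 for the oxidant producers, beside 4942 of 9720 genes. Cybb, the catalytic subunit of the phagocyte oxidase, then passed (0.38, adjusted p = 0.0339 in limma), where 2.61% of all genes did.

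Markers of cell types, among them the lymphoid and pluripotent types in the line's label, were measured on the same scale. The counts cover the listed genes that were fitted, for example 10 of 21 lymphoid, 10 of 16 pluripotent and 4 of 15 erythroid markers. Of 15 myeloid markers, 12 were below 0 (median -0.075), 4 with an unadjusted p under 0.05 and 0 past limma's threshold; Camp was lowest at -0.30 ± 0.09 (SE). With the dye swaps turned, 4 of the 15 were below 0 (median 0.092) and 5 had an unadjusted p under 0.05 (19.5% of all genes). S100a9, a calcium-binding protein of neutrophils, then passed (0.31, adjusted p = 0.0126 in limma), as did 2.61% of all genes. In the ratios as deposited, 2 of 4 erythroid markers were below 0 (median 0.010), 3 of 13 fibroblast markers (median 0.074) and 5 of 10 lymphoid markers (median -0.002). So were 3 of 10 pluripotent markers (median 0.073) and 1 of 9 adult organ markers (median 0.034). The 5 lymphoid markers below 0 were Cd247 (-0.122), Cd8a (-0.077), Cd3g (-0.059), Dntt (-0.042) and Cd79b (-0.039). The 3 pluripotent ones were Pou5f1, Zfp42 (-0.090) and Sox2 (-0.006). Pou5f1 was at -0.385 ± 0.217 (SE) and below 0 on 11 of 14 arrays. Of the lymphoid markers, 2 had an unadjusted p under 0.05 in limma, Ptprc at 0.19 ± 0.05 (SE) and Ikzf1 at 0.557 ± 0.255. So did 1 pluripotent marker, Esrrb at 0.45 ± 0.17, beside 7.02% of all genes, and none passed once adjusted. No erythroid, fibroblast or adult organ marker had such a p. With the dye swaps turned, 4 lymphoid, 2 pluripotent, 2 fibroblast and 1 adult organ marker did (19.5% of all genes). The part of any of these cell types in the members' ratios was not tested.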

How the data were processed

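The labels describe 15 two-colour arrays, each with treated RNA in one dye and untreated RNA in the other. The authors deposited log2 ratios; their scale was inferred from the values. Normalization, background correction, spot filter and direction were not given in the sources used here. Values with an absolute log2 ratio above 10, which equal the log2 of 100000 plus or minus a constant of the array, were set missing. Probe names came from the platform annotation (13891 probes with 1 symbol, 5 with several, 6309 with none), updated through RefSeq GRCm38.p6 for 13855 identifiers, and the probes of a gene were averaged per array. Genes measured on 4 or more arrays per orientation entered limma 3.58.1 in R 4.3.3 (lmFit and eBayes, two-sided), with a treatment mean and a dye term and no further normalization. The fit was also run on simulated independent normal noise with the spread of each gene and shifts added to some genes. The simulation held no dye effect and no arrays sharing an RNA, so it does not cover these.

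Members and lists were chosen with earlier results of these data known. Every fitted member is named; array values are given for members with an unadjusted p under 0.05 and for the smallest p of each role, with Prdx1, Gpx1 and Gpx5 added after their values were seen. From the other pathway lists, the 3 smallest p-values under 0.05 were to be named, and the fourth is named too where there are 4. Keap1, Nfe2l2, Gss, Srxn1, Cybb, S100a9, Camp, Ptprc, Ikzf1 and Esrrb were also added after their values were seen. The same holds for the lymphoid and pluripotent markers named as below 0. Alternatives covered normalization, filters, probe choice, dim spots, the dye and the arrays used. The number of arrays limits the precision. Scanner intensities were not analysed here.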

Additional observations from a re-analysis of the deposited data

Results flagged for a closer look

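One probe of Txnl4a differed between the dye orientations by the test of that difference. Its dye effect was 0.30 (log2; adjusted p = 0.0274 in limma), with a treatment estimate of 0.04. The gene average of Txnl4a, over 3 probes, had a dye effect of 0.03 ± 0.18 (SE, n = 15 arrays; adjusted p = 0.949) and did not pass. The part of the dye or of the treatment in this probe's value cannot be told apart.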

How the results depend on the processing

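In all 30 alternatives, which turned the dye swaps only with all 15 arrays kept, 0 members passed for treatment. The smallest adjusted p of a member was 0.0914, with the dye swaps turned, and 0.234 in the others. With 1 array left out at a time, the members below 0 numbered 24 to 30 and their median was -0.023 to 0.007; in the other alternatives these stayed between 22 and 30 and between -0.018 and 0.036. For the dye effect, 2 members, Gpx5 and Prdx1, passed without array 7 and without arrays 7, 8 and 15 (0 to 2 over single arrays left out). The cause was not tested. With these arrays left out and the dye swaps turned as well, the same 2 members would pass for treatment. With the dye swaps turned, the estimate is the dye effect of the deposited ratios, and its sign depends on the values. The sign changed for Glrx2 (-0.041), Gpx1 (0.20), Gpx2 (0.31), Gpx5 (0.27), Prdx1 (0.29), Prdx4 (0.19), Txn1 (0.078) and Txndc11 (-0.087). It stayed the same for Gclc (-0.029), Gstt2 (0.206), Sod3 (0.127), Txndc2 (0.363) and Txnrd2 (0.032). With the treated RNA in Cy5 alone Gpx1 was at 0.12, Gpx5 at 0.22 and Prdx1 at 0.21, and with it in Cy3 alone Gstt2 was at -0.045 and Txnrd2 at -0.022. Array weights gave 0.070 for Prdx1, 0.067 for Gpx5 and -0.015 for Txnrd2, quantile normalization -0.007 for Txnrd2 and 0.009 for Gpx5, and leaving out arrays 7, 8 and 15 gave 0.031 for Prdx1 and 0.024 for Gpx5; the cause was not tested. Single arrays left out moved Txnrd2 between -0.019 and 0.047 and Gpx5 between -0.102 and 0.051. Members with an unadjusted p under 0.05 in limma numbered 4 without arrays 7, 8 and 15 (7.9% of all genes). Over the alternatives they ran from 1, Txn1, with dim spots left out (6.8% of all genes) to 6 with the dye swaps turned (19.5%). Each ratio already pairs the treated and untreated RNA of 1 array. The labels do not match the dye swaps to arrays 1 to 8, so no pairing of arrays entered the fit. Fits of a single orientation or without the dye term gave no dye effect, and signal over background is unknown.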
